A study of Ovis aries and Bos taurus with 10 samples.

Results

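MAEL, TDRD6, TDRD7, ASZ1, GTSF1, STAG3 and SYCP3 are germ cell genes of the nuage, of the piRNA pathway and of the meiotic chromosome axis. They were followed across all 10 arrays of a sheep ovary series through every probe set whose chip annotation named one of these symbols alone, which gave 13 of the 24016 probe sets that are not controls. MAEL and STAG3 had 3 probe sets each, TDRD7 and SYCP3 had 2 each, and TDRD6, ASZ1 and GTSF1 had 1 each. Each probe set was kept apart, and a gene's name below stands with the identifier of its probe set.

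The nuage is a body of RNA and protein without a membrane that lies near the nucleus of animal germ cells. Tudor domain proteins bind methylated arginines of Piwi proteins there, and the small piRNAs that Piwi proteins carry guide the silencing of transposons. In the female, germ cells enter meiotic prophase in the fetal ovary, where a cohesin axis and the lateral elements of the synaptonemal complex hold the paired chromosomes, and oocytes are already arrested late in this prophase when a primordial follicle encloses them.

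The study set oocytes against granulosa cells (GC), the somatic cells around the oocyte, at 3 early follicle stages. Oocytes (PDO, PMO and SECO) and GC (PDG, PMG and SECG) of primordial, primary and secondary follicles were cut from ovarian sections of newborn lambs under 1 day old by laser capture microdissection (LCM), with 1 array for each compartment and stage. RNA was pooled from 2 animals at the primordial and secondary stages and from 4 at the primary stage, amplified over 2 rounds and labelled with the Arcturus turbo kit (protocol P3). The other 4 arrays held whole fetal ovary, from sheep at 132 days post coitum under P3, under P2 (amplified, then labelled the Affymetrix way) and under P1 (the standard Affymetrix protocol without that amplification), and from cattle at 8 months of gestation under P1. All RNA went onto a chip designed for cattle, so that sheep signals are cross-species signals, and the labels give no mutation and no drug for any group.

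Values are MAS 5.0 signals, for which the trimmed mean of each array is 100. Present calls per probe set were not used here, and the percentage given for each array set how many of its brightest probe sets were taken as detected. The lowest signal taken as detected, the detection limit, was between 45.8 and 74.2 on the 6 LCM arrays and between 28.9 and 44.7 on the fetal ovaries. Markers of the captured cells did not separate cleanly. The summed signal of 7 oocyte markers was 7444 on PDO, 7509 on PMO and 2315 on SECO, against 2836 on PDG, 5305 on PMG and 3390 on SECG, and ZP3, a zona pellucida protein, was the only one of the 7 with the higher signal in oocytes at all 3 stages. The summed signal of 11 GC markers was 349 on PDO, 676 on PMO and 928 on SECO, against 837 on PDG, 1356 on PMG and 2992 on SECG. AMH, a defining GC hormone, was detected on no LCM array. SECO stood apart, since it had the lowest oocyte marker sum of the 6 arrays and a red blood cell marker sum of 3913, against a range of 89.4 to 492 on the other 5. Stroma markers summed to 4369 to 15749 on oocyte arrays and to 12698 to 47047 on GC arrays. The differences of the members by compartment and by stage are therefore also given without SECO, a choice made after its values were seen. Without SECO, the compartments were fitted without the stage term. The part of these markers in the results below was not tested. In such bulk samples, fewer cells of a type and less RNA per cell cannot be told apart.

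Detection was more frequent in oocytes than in GC when probe sets were counted. By gene, 4 of 7 were detected on all oocyte arrays and 4 of 7 on all GC arrays. On at least 1 array of the compartment, 7 of 7 were detected in oocytes and 5 of 7 in GC. Of the 13 probe sets, 8 were detected on PDO, 9 on PMO and 11 on SECO, against 6 on PDG, 7 on PMG and 5 on SECG. Over all 24016 probe sets the share detected was 34.1%, 29.4% and 32% on the 3 oocyte arrays, against 36.5%, 30.1% and 35.4% on the 3 GC arrays. On at least 1 oocyte array 12 of the 13 were detected, where 41.3% of all probe sets were, and on at least 1 GC array 8 of the 13, where 43.7% were. Without SECO the oocyte count was 9 of 13, against 37.5% of all probe sets, since ASZ1, STAG3 Bt.21645.2.S1_at and SYCP3 Bt.17096.1.S1_at were detected in oocytes on SECO alone. MAEL, TDRD7, GTSF1 and STAG3 each had at least 1 probe set detected on all 6 LCM arrays, whereas TDRD6 and SYCP3 were detected on no GC array.

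**Figure D1:**
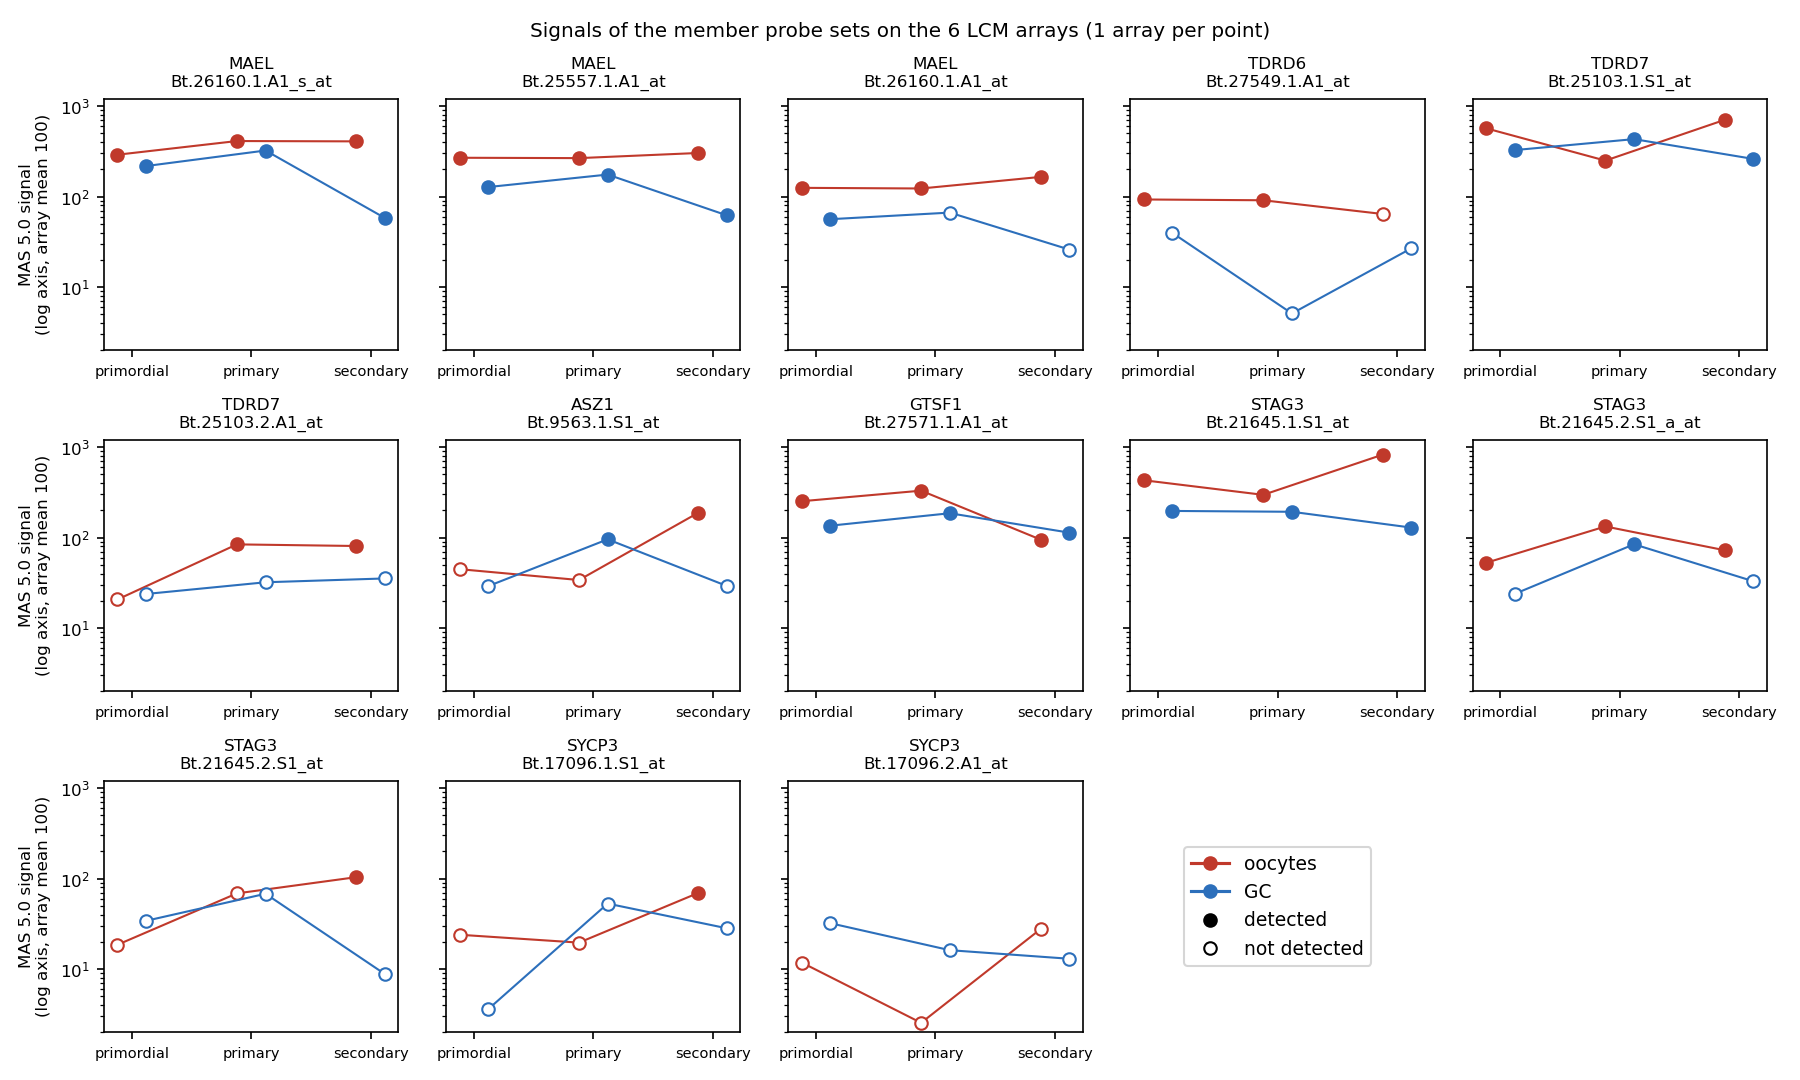
MAS 5.0 signals (log axis, trimmed array mean 100) of the 13 probe sets in oocytes and GC at the primordial, primary and secondary stage, with 1 array per point, filled where detected and open where not. The oocyte line lies above the GC line at all 3 stages for the 3 MAEL probe sets, TDRD6 and 2 of the 3 STAG3 probe sets.

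The compartments were compared with limma on log2(signal + 20), with the stage as the pairing term and the 3 stages as the replicates of a compartment, across 11642 probe sets, those with at least 1 LCM array above its limit. No probe set passed an adjusted p of 0.05 (0 of 11642, 0% called), and the smallest adjusted p was 0.406. At an unadjusted p under 0.05, 644 probe sets (5.53%) were higher in oocytes and 651 (5.59%) in GC, and 4 of the 12 members fitted were among those higher in oocytes and 0 among those higher in GC. One of the 4, TDRD6, had passed the filter through oocyte arrays alone, as had 4 of the 12 members fitted, with 0 through GC arrays alone. Of the 13 members these were 4 and 0, where 4.75% and 7.15% of all 24016 probe sets were detected in that way. An exact permutation within the 3 pairs cannot give a two-sided p below 0.25. The stage term takes out what both arrays of a stage share. The spread behind each SE and p is thus how the oocyte minus GC difference varied over the 3 stages and their animal pools. limma drew it towards a value common to all probe sets, and no stage had a second array.

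MAEL (Maelstrom) is a nuage protein needed for transposon silencing in the germ line of mice and flies. It was the only member among the quantitative PCR primers of the study, which are shown because they are the only designed sequences for these genes used here.
MAEL forward primer: caaacacacccactggtgac
MAEL reverse primer: gtatccgtgttttggggatg
Each has 20 bases, of which 11 in the forward and 10 in the reverse primer are G or C.

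The 3 probe sets of MAEL gave a flat signal across oocyte stages. Bt.25557.1.A1_at had 269 on PDO, 266 on PMO and 303 on SECO, against 127 on PDG, 175 on PMG and 61.9 on SECG, so that the lowest oocyte signal lay above the highest GC signal. Its fitted oocyte minus GC difference was 1.17 ± 0.37 on the log2 scale (SE, 3 arrays each, limma adjusted p = 0.406). Bt.26160.1.A1_at had 125 on PDO, 123 on PMO and 165 on SECO, against 56.3 on PDG, 66.6 on PMG and 26.0 on SECG. These groups did not overlap either, with a difference of 1.22 ± 0.36 (limma adjusted p = 0.406), and on the GC side only PDG was above its detection limit. Bt.26160.1.A1_s_at was the brightest of the 3 and had 290 on PDO, 411 on PMO and 407 on SECO, against 218 on PDG, 323 on PMG and 57.9 on SECG. Here the groups overlapped, because the PMG signal exceeded that of PDO, and the difference was 1.06 ± 0.47 (limma adjusted p = 0.461).

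The GC side varied more than the oocyte side for MAEL. The highest oocyte signal was 1.14 to 1.42 times the lowest over the 3 probe sets, and the highest GC signal was 2.56 to 5.57 times the lowest, with SECG the lowest GC array for each. The oocyte to GC ratio was accordingly 4.90 to 7.03 at the secondary stage, against 1.33 to 2.22 at the primordial and 1.27 to 1.85 at the primary stage. Without the secondary stage the log2 differences were 0.36 for Bt.26160.1.A1_s_at, 0.76 for Bt.25557.1.A1_at and 0.82 for Bt.26160.1.A1_at, all smaller than in the fit of 6 arrays. Without SECO alone, in a model without the stage term that keeps SECG, they were 0.98, 1.11 and 1.10. Within its array, Bt.26160.1.A1_s_at ranked at the percentiles 90.1, 92.7 and 92.7 on PDO, PMO and SECO, and at 87.3, 90.9 and 67.9 on PDG, PMG and SECG.

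TDRD6, a large Tudor domain protein of the chromatoid body of mouse spermatids, had a weak signal. Bt.27549.1.A1_at had 92.9 on PDO, 91.1 on PMO and 64.2 on SECO, against 39.6 on PDG, 5.11 on PMG and 26.9 on SECG. It was detected on PDO and PMO, lay just under the limit of 67.6 on SECO, and was below the limit on every GC array, with no overlap between the compartments. The oocyte geometric mean of 81.6 was 1.49 times a GC mean set at the detection limits or the signal, whichever was larger, on each array. The oocyte mean includes the undetected SECO signal as measured, so that 1.49 is not a strict lower bound. The measured GC geometric mean was 17.6. The fitted difference was 1.30 ± 0.37 (limma adjusted p = 0.406). It was 2.15 at the primary stage, where the GC signal was lowest, against 0.92 at the primordial and 0.85 at the secondary stage, and without the primary stage it was 0.88. Without SECO it was 1.44.

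TDRD7, a Tudor domain protein of germ cell and lens RNA granules, was bright in both compartments. Bt.25103.1.S1_at had 569 on PDO, 250 on PMO and 705 on SECO, against 326 on PDG, 431 on PMG and 261 on SECG. Oocytes were higher at the primordial and secondary stages and GC at the primary stage, with an overall difference of 0.46 ± 0.44 (limma adjusted p = 0.718). The difference was 1.07 without the primary stage, 0.011 without the secondary stage and 0.18 without SECO alone. Its second probe set, Bt.25103.2.A1_at, had 20.7 on PDO, 84.2 on PMO and 80.8 on SECO, against 23.8 on PDG, 32.1 on PMG and 35.4 on SECG. It was detected on PMO and SECO and on no GC array, and the primary stage order was opposite to that of the first probe set. The fitted difference was 0.59 ± 0.35 (limma adjusted p = 0.552) and 0.38 without SECO, and no lower bound above 1 could be given.

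ASZ1, a germ cell protein with ankyrin repeats that sits at mitochondria next to the nuage in mice, had no single order over the stages. Bt.9563.1.S1_at had 44.8 on PDO, 34.0 on PMO and 189 on SECO, against 29.1 on PDG, 95.7 on PMG and 29.2 on SECG. It was detected on SECO and PMG alone, once in each compartment. The log2 difference was 0.40 at the primordial stage, -1.10 at the primary stage and 2.09 at the secondary stage, and the fitted value was 0.46 ± 0.56 (limma adjusted p = 0.779). The high oocyte signal was that of SECO, and without SECO the difference was -0.14.

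GTSF1, a small zinc finger protein that works with Piwi proteins in transposon silencing, ran the other way over the stages. Bt.27571.1.A1_at had 252 on PDO, 330 on PMO and 95.1 on SECO, against 135 on PDG, 186 on PMG and 113 on SECG, all above their limits. Oocytes were 1.86 and 1.78 times as bright as GC at the primordial and primary stages and 0.84 times as bright at the secondary stage. GTSF1 was thus lowest on SECO, the array with the lowest summed oocyte marker signal. Among the oocyte arrays TDRD6 was also lowest on SECO, at 64.2 against 92.9 on PDO and 91.1 on PMO. MAEL, STAG3 Bt.21645.1.S1_at, TDRD7 Bt.25103.1.S1_at and ASZ1 were at or near their highest on SECO. The difference for GTSF1 was 0.45 ± 0.34 (limma adjusted p = 0.639), and without SECO it was 0.93.

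STAG3 is a cohesin subunit that is specific to meiosis, and women who lack a working copy lose ovarian function early. Its probe set Bt.21645.1.S1_at had 430 on PDO, 297 on PMO and 824 on SECO, against 197 on PDG, 193 on PMG and 129 on SECG. The compartments did not overlap, and the geometric means were 472 in oocytes and 170 in GC. The fitted difference of 1.38 ± 0.42 (limma unadjusted p = 0.0129, adjusted p = 0.406) was the largest of the members in the fit of 6 arrays with a constant of 20 and stood there at the percentile 99.5 of all 11642 probe sets. It was 1.05 at the primordial, 0.57 at the primary and 2.50 at the secondary stage. Without the whole secondary stage it was 0.81. Without SECO it was 0.99, less than the 1.44 of TDRD6 and the 1.11 and 1.10 of the MAEL probe sets Bt.25557.1.A1_at and Bt.26160.1.A1_at, and with a constant of 1 it was 1.47, less than the 2.12 of TDRD6 and the 1.54 of MAEL Bt.26160.1.A1_at.

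The other STAG3 probe sets were dimmer. Bt.21645.2.S1_a_at had 52.6 on PDO, 133 on PMO and 72.5 on SECO, against 23.9 on PDG, 84.4 on PMG and 32.9 on SECG. Oocytes were higher at each stage by a similar log2 difference of 0.73, 0.55 and 0.81, but the groups overlapped because both primary arrays were high, and the fitted difference was 0.69 ± 0.30 (limma adjusted p = 0.451), or 0.76 without SECO. Bt.21645.2.S1_at had 18.6 on PDO, 68.6 on PMO and 104 on SECO, against 34.2 on PDG, 68.0 on PMG and 8.80 on SECG. It was detected on SECO alone, its fitted difference was 0.54 ± 0.51 (limma adjusted p = 0.714), and it was -0.24 without the secondary stage and 0.18 without SECO. RefSeq lists 7 transcripts of STAG3 and 6 of TDRD7 in sheep, against 1 or 2 for each of the other 5 genes. Which of them a probe set measures was not tested.

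SYCP3, a protein of the lateral elements of the synaptonemal complex, was close to the background of the LCM arrays. Bt.17096.1.S1_at had 24.0 on PDO, 19.6 on PMO and 69.6 on SECO, against 3.61 on PDG, 53.0 on PMG and 28.2 on SECG, and only SECO exceeded its limit. The difference was 0.30 ± 0.43 (limma adjusted p = 0.811), and without SECO it was -0.064. Bt.17096.2.A1_at, with 11.8, 2.55 and 27.7 on PDO, PMO and SECO against 32.2, 16.2 and 13.0 on PDG, PMG and SECG, was detected on no LCM array and was not fitted.

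**Figure D2:**
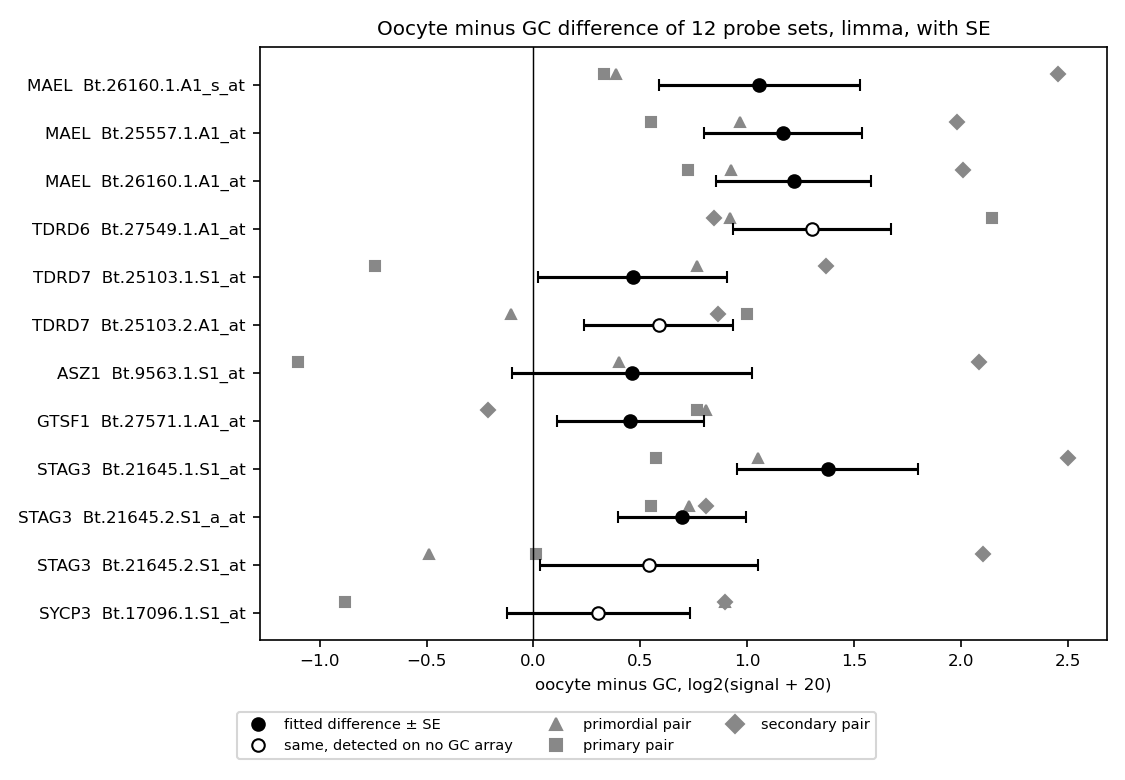
Oocyte minus GC difference on the log2(signal + 20) scale for the 12 fitted probe sets (circles with SE from limma, 3 arrays per compartment, open where no GC array detected the probe set), and the difference of each stage's pair of arrays (grey symbols). The secondary pair lies farthest to the right for all 3 MAEL and all 3 STAG3 probe sets, ASZ1 and TDRD7 Bt.25103.1.S1_at. The primary pair does for TDRD6 and TDRD7 Bt.25103.2.A1_at, and the primordial pair, by a small margin, for GTSF1 and SYCP3 Bt.17096.1.S1_at.

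Across the 13 probe sets, the oocyte signals all lay above the GC signals for 4 (MAEL Bt.25557.1.A1_at and Bt.26160.1.A1_at, TDRD6 and STAG3 Bt.21645.1.S1_at), where the share over all 24016 probe sets was 6.61%. All of these 4 were among the 12 members fitted, where the share over the 11642 probe sets kept was 7.28%. The reverse, all GC signals above all oocyte signals, held for 0 of the 13, against 5.6% of all probe sets and 7.71% of those kept. Oocytes were higher at each of the 3 stages for 6 of the 13, with 3 MAEL and 2 STAG3 probe sets and TDRD6, against 16.5% of all probe sets and 17.7% of those kept. GC were higher at each stage for 0 of the 13, against 13.4% and 17.1%. With SECO left out, oocytes lay above GC for 5 of the 13, GTSF1 having joined, against 13.5% of all probe sets. GC lay above oocytes for 1 of the 13, against 11.7%. Among the 12 members fitted these were 5, against 15.9% of the probe sets kept, and 0, against 15.5%. At both the primordial and the primary stage, oocytes were higher for 7 of the 13, against 28.4% of all probe sets, and GC for 1, against 27.3%. Among the 12 fitted these were 7, against 30.3% of the probe sets kept, and 0, against 31.4%. The 1 higher in GC in both counts was SYCP3 Bt.17096.2.A1_at, which the detection filter had removed from the fit. Without any filter on low signals, the mean difference was above 0 for 12 of the 13, with a median of 0.59, against 54.2% of all 24016 probe sets and a median of 0.04. Without SECO it was above 0 for 10 of the 13, with a median of 0.76, against 51.3% of all probe sets and a median of 0.015. The probe sets of one gene share a target and are not independent.

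The stages were compared in the same limma fit, secondary minus primordial over both compartments. At an adjusted p of 0.05, 0 of 11642 probe sets were called (0%), with a smallest adjusted p of 0.238. At an unadjusted p under 0.05 there were 1325 (11.4%), of which 0 were members. The largest member differences were 1.03 ± 0.52 for SYCP3 Bt.17096.1.S1_at, 0.84 ± 0.69 for ASZ1, 0.82 ± 0.43 for TDRD7 Bt.25103.2.A1_at and -0.73 ± 0.42 for GTSF1. Without SECO these were 0.59 for SYCP3 Bt.17096.1.S1_at, -0.37 for ASZ1, 0.61 for TDRD7 Bt.25103.2.A1_at and -0.23 for GTSF1, so that the direction of ASZ1 turned. In that fit SECG alone stood for the secondary stage, so that these values no longer cover both compartments there. The largest without SECO was -1.62 for MAEL Bt.26160.1.A1_s_at, against -0.57 with it. This probe set had 57.9 on SECG against 218 on PDG, but 407 on SECO against 290 on PDO. Only GTSF1 of the first 4 was above its limit on all 6 LCM arrays. Primary minus primordial, STAG3 Bt.21645.2.S1_a_at had a difference of 1.16 ± 0.37 (limma adjusted p = 0.740).

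**Figure D3:**
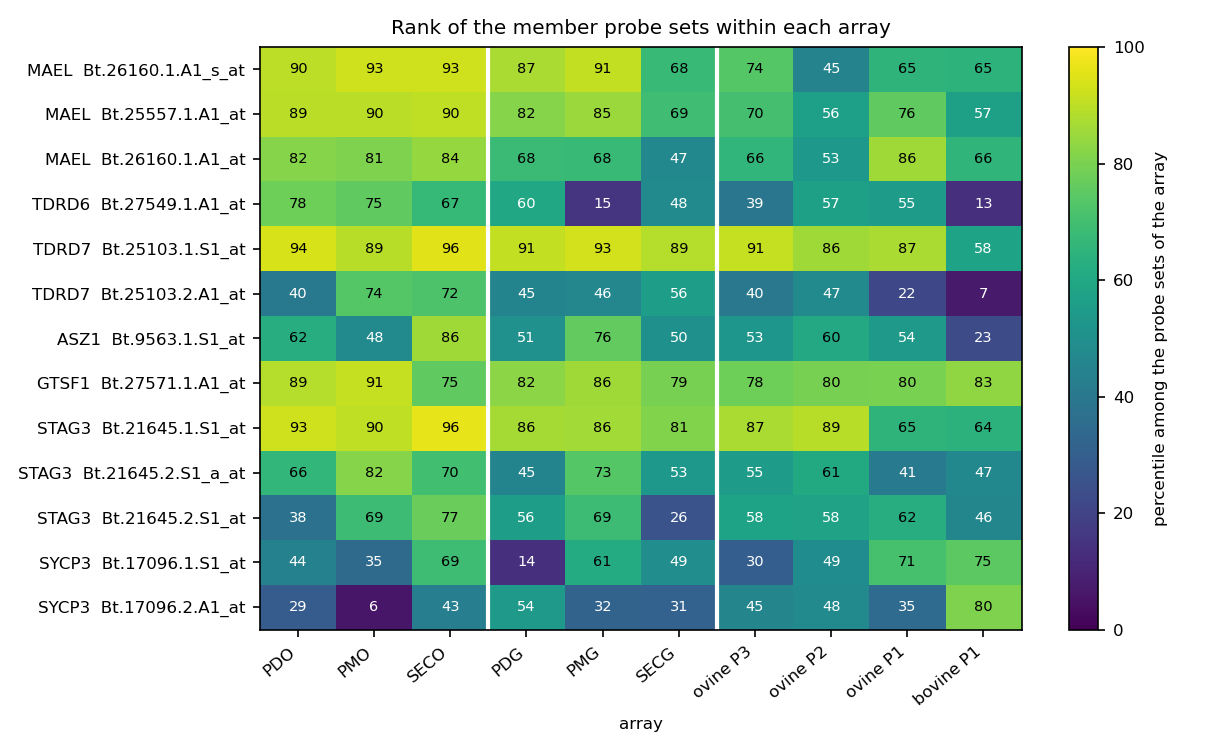
Rank of each of the 13 probe sets among the 24016 probe sets of the same array, as a percentile (colour and number), with the 3 oocyte arrays, the 3 GC arrays and the 4 fetal ovary arrays set apart by white lines. TDRD7 Bt.25103.1.S1_at stays at or above the percentile 85.9 on all 9 sheep arrays and is at 57.8 on the bovine one.

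Few other genes of these pathways could be read from the chip annotation used here. Of 34 further piRNA and nuage genes 7 had a probe set of their own, and each was read through its brightest one. DDX25, an RNA helicase known from the chromatoid body of mouse spermatids, had 847 on PDO, 649 on PMO and 785 on SECO, against 408 on PDG, 261 on PMG and 321 on SECG, with no overlap and a difference of 1.17 ± 0.30 (limma adjusted p = 0.406). PRMT5, the enzyme that methylates arginines of Piwi and many other proteins, had 2226, 1420 and 778 on PDO, PMO and SECO, against 1123, 992 and 556 on PDG, PMG and SECG. Its groups overlapped although oocytes were higher at each stage, and the difference was 0.65 ± 0.31 (limma adjusted p = 0.476). The 7 genes had a median difference of 0.05, beside 0.04 over all probe sets. Of the 7, 6 were fitted and 0 passed the adjusted test.

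The general cohesin genes gave no such order. Of 15 listed, 6 had a probe set, with a median difference of -0.06, and of the 4 fitted 0 passed the adjusted test. RAD21, the cohesin subunit that closes the ring in mitosis, had 793 on PDO, 871 on PMO and 1003 on SECO, against 1765 on PDG, 1645 on PMG and 1536 on SECG, so that all GC signals lay above all oocyte signals, with a difference of -0.88 ± 0.31 (limma adjusted p = 0.414). SMC3, a core cohesin subunit, had a difference of -0.09 ± 0.33 (limma adjusted p = 0.937). STAG3 and RAD21 thus stood on opposite sides of 0, although neither passed the adjusted test. Of 13 genes of the synaptonemal complex and of meiotic cohesin only TEX12 had a probe set, which was detected on no LCM array, and of 35 genes of meiotic entry and recombination 4 had one (MSH5, HFM1, HSF2BP and YTHDC2), with a median difference of 0.02, of which 2 were fitted and 0 passed the adjusted test.

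The fetal ovaries gave 1 array per protocol and species, so that these values have no test. In ovine fetal ovary, MAEL Bt.26160.1.A1_at had 50.8 under P3, 29.9 under P2 and 226 under P1, and SYCP3 Bt.17096.1.S1_at had 10.9 under P3, 24.0 under P2 and 89.5 under P1. Both were highest under P1, the protocol without the 2 rounds of amplification. STAG3 Bt.21645.1.S1_at had the opposite order, with 235 under P3 and 304 under P2, against 66.3 under P1. The brightest MAEL probe set of the LCM arrays, Bt.26160.1.A1_s_at, had 81.8 under P3, 20.4 under P2 and 66.5 under P1, so that the probe sets of one gene differed in their order over the protocols.

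At least 2-fold on the log2(signal + 20) scale, 1 of the 10 members detected on either array was higher under P3 than under P1 (STAG3 Bt.21645.1.S1_at) and 2 were lower, where 14.2% and 25.7% of all probe sets detected on either array were. Under P2 against P1, 1 of 10 was higher, again that STAG3 probe set, and 4 were lower (all 3 of MAEL and SYCP3 Bt.17096.1.S1_at), where the shares were 12.9% and 22.9%. Both comparisons share the P1 array. The number of members detected was 6 under P3, 3 under P2 and 10 under P1 of the 13, where 37.8%, 38.7% and 49.9% of all probe sets were detected. TDRD7 Bt.25103.1.S1_at, GTSF1 and STAG3 Bt.21645.1.S1_at were detected under each protocol.

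**Figure D4:**
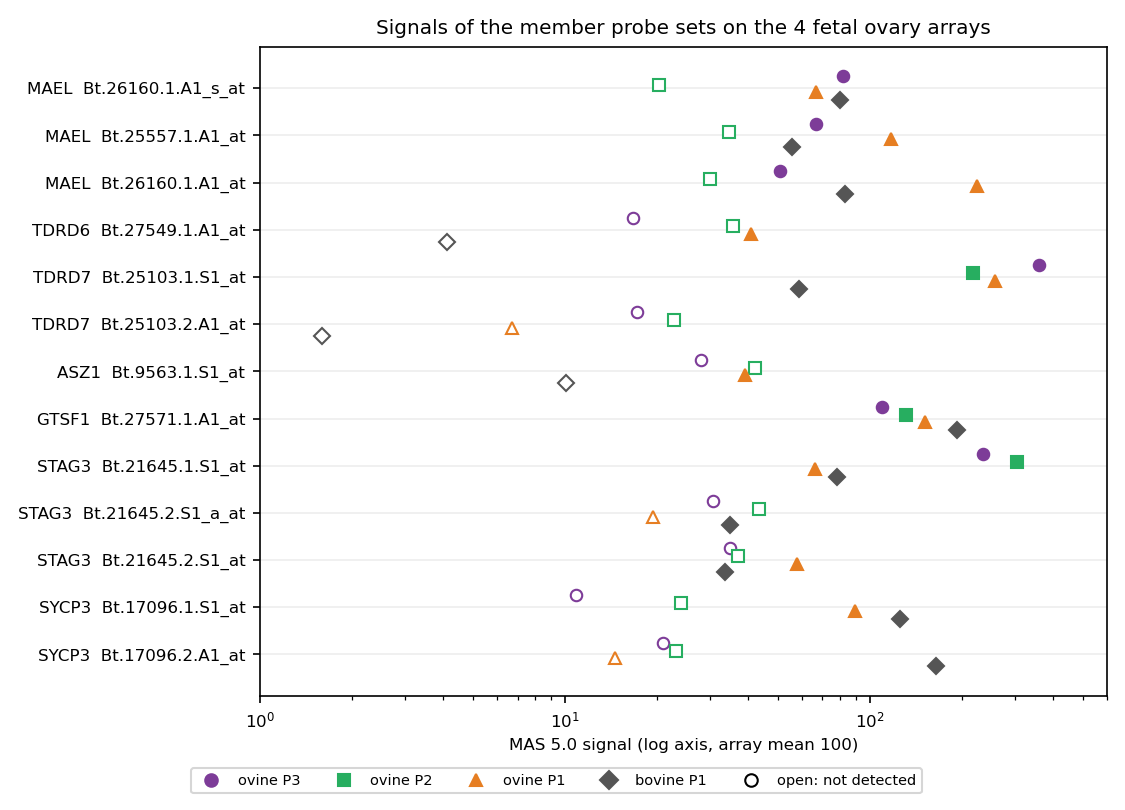
MAS 5.0 signals (log axis, trimmed array mean 100) of the 13 probe sets on the ovine fetal ovary arrays under P3, P2 and P1 and on the bovine array under P1, with 1 array per symbol, filled where detected and open where not. SYCP3 Bt.17096.2.A1_at lies at 165 on the bovine array and between 14.6 and 23.2 on the 3 ovine ones.

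Ovine against bovine fetal ovary under P1, 3 of 12 members were at least 2-fold higher in the sheep and 1 was lower, where 12.3% and 20.5% of all probe sets detected on either array were. TDRD7 Bt.25103.1.S1_at had 257 in the ovine and 58.5 in the bovine ovary, and MAEL Bt.26160.1.A1_at had 226 in the ovine and 83.2 in the bovine ovary. TDRD6 had 40.7 in the ovine ovary, against 4.10 in the bovine ovary, where it was below its limit. SYCP3 differed by probe set, since Bt.17096.2.A1_at had 14.6 in the ovine and 165 in the bovine ovary, whereas Bt.17096.1.S1_at, detected in both, had 89.5 in the ovine and 126 in the bovine ovary. Species, age of the fetus and the fit of bovine probes to sheep RNA cannot be told apart here.

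Against the ovine fetal ovary under the same protocol, P3, the 3 oocyte arrays had 2.42 to 5.02 times its MAEL signal over the 3 probe sets, and the GC arrays 0.51 to 3.95 times. STAG3 Bt.21645.1.S1_at had 1.83, 1.26 and 3.51 times the fetal signal on PDO, PMO and SECO, against 0.84, 0.82 and 0.55 times on PDG, PMG and SECG. This probe set thus lay under the whole fetal ovary on the GC arrays and above it on the oocyte arrays. The other STAG3 probe sets, not detected in that fetal ovary, did not keep this order. Bt.21645.2.S1_a_at had 2.75 times the fetal signal on PMG, and Bt.21645.2.S1_at had 0.54 times on PDO and 1.96 times on PMG. GTSF1 had 2.30, 3.00 and 0.87 times on PDO, PMO and SECO, against 1.23, 1.69 and 1.03 times on PDG, PMG and SECG.

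By Pearson's r over the 10 arrays on the log2 scale, the gene with the pattern most like that of MAEL (Bt.26160.1.A1_s_at) was GABRA4, a subunit of the GABA-A receptor (r = 0.94), followed by IQCA1 (0.93) and TEX30 (0.92). For STAG3 (Bt.21645.1.S1_at) it was TKTL1, a transketolase-like enzyme (0.94), and for SYCP3 (Bt.17096.1.S1_at) ELMOD3 (0.96). GTSF1 was closest to AURKA, the mitotic and meiotic kinase Aurora A (0.90), which had 2028 on PDO, 2701 on PMO and 648 on SECO, against 976 on PDG, 1453 on PMG and 849 on SECG. TDRD6 was closest to SNAPC1 (0.95), TDRD7 (Bt.25103.1.S1_at) to ACAT2 (0.93) and ASZ1 to LEF1 (0.90). These were the highest among 7196 candidate probe sets on arrays that share protocols, stages and animals, and they carry no test.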

How the data were processed

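The deposited values were linear MAS 5.0 signal intensities of 10 Affymetrix Bovine Genome arrays, which the authors made in GCOS with scaling to 100 and no further normalization. In the table, the mean of each array without the lowest and highest 2% was 100. Of the 24128 probe sets, 112 controls were left out, 13292 had a single gene symbol, 86 several and 10638 none. Groups came from the sample labels. A constant of 20 was added before log2, and limma 3.58.1 in R 4.3.3 fitted stage and compartment on the 6 LCM arrays, with Benjamini-Hochberg adjustment at 0.05 over 11642 probe sets and 2 residual and 5.43 prior degrees of freedom. The code was tested on simulated data. Tables and figures used Python 3.11.15 and matplotlib 3.10.9. A number of 1 array per compartment and stage limits the precision, since the 3 stages stood in for replicates. Named genes were the members, the genes of 4 further lists and, by Pearson's r over 10 arrays, the 3 most alike genes of each member's brightest probe set, detected on at least 3 arrays. The members and lists were chosen with earlier results of these data known. Alternatives were other constants (1, 50, a floor at 20), quantile normalization, other filters and detection limits, a model with no stage term, a variance prior that follows intensity and leaving out a stage or an array. The quantitative PCR was not analysed here.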

Additional observations from a re-analysis of the deposited data

Results flagged for a closer look

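For ASZ1 (Bt.9563.1.S1_at), the oocyte minus GC difference on the log2(signal + 20) scale was 2.09 at the secondary stage and -1.10 at the primary stage, so that the stages went opposite ways by more than 2-fold each. The signals were 189 on SECO against 29.2 on SECG, and 34.0 on PMO against 95.7 on PMG. Each stage had 1 pair of arrays, and the difference between the stages was not tested.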

How the results depend on the processing

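No member passed an adjusted p of 0.05 under any alternative, and none of the 3 MAEL probe sets, TDRD6, TDRD7, GTSF1 or the 2 brighter STAG3 probe sets reversed by compartment. The count of all probe sets called by compartment was 0 in the main fit and 10 with an intensity trend (0 members), and by stage 0 and, with a constant of 50, 37 (0 members). By compartment, leaving out a stage or an array gave 0 to 0 calls; with the stage term, leaving out 1 array leaves the other of its stage without weight. The stage was the pairing term, and with no replicate block there were 0 calls as well. Reversed by compartment were ASZ1 (-0.35 to 1.24 over the left-out stages, lowest without the secondary stage, and -0.14 without SECO), STAG3 Bt.21645.2.S1_at (-0.24 to 1.06, lowest without the secondary stage) and SYCP3 Bt.17096.1.S1_at (-0.064 without SECO). By stage, leaving out 1 array gave 0 to 18 calls, 18 without either primary array (0 members). The differences lowest without SECO and highest without SECG were -1.62 to 0.48, -0.95 to 0.27 and -0.78 to 0.40 for MAEL Bt.26160.1.A1_s_at, Bt.25557.1.A1_at and Bt.26160.1.A1_at, -0.68 to 0.68 for TDRD7 Bt.25103.1.S1_at, -0.37 to 2.06 for ASZ1, -0.66 to 1.03 for STAG3 Bt.21645.1.S1_at and -0.79 to 1.56 for STAG3 Bt.21645.2.S1_at. These turned direction. TDRD7 Bt.25103.1.S1_at was 0.0054 with a constant of 50 and 0.080 after quantile normalization, against -0.0014. With detection at a signal of at least 100, 5 members were detected on at least 1 GC array, against 8, and 9 on at least 1 oocyte array, against 12. At a signal of at least 50 these counts were 10 in GC and 12 in oocytes. Members at least 2-fold lower under P2 than P1 numbered 1 with a constant of 50, against 4, and those higher in ovine than bovine ovary 5 with a constant of 1 and 5 after quantile normalization, against 3. The causes were not tested. Depth on arrays is set by signal over the detection limits, and TDRD6, ASZ1, SYCP3 and the dimmer probe sets of TDRD7 and STAG3 lay near or under them.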
